A study of Mus musculus with 2 samples.

Results

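The cells described here are 406 alveolar type 2 (AT2) cells from mouse lung organoids treated with IL-1β, a cytokine of innate immunity. They were chosen by a rule on measured expression, as the cells in which Retnla, Gstm1 and Slc7a11 together stood higher than any of 3 other gene trios. The rule started from 1650 AT2 cells of the IL-1β library, so the 406 made up 24.6% of them (exact Clopper-Pearson 95% interval 22.5% to 26.8%). That library held 3066 cell barcodes, and the series holds 5167.

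AT2 cells are the surfactant-making cells of the alveolus and the progenitors that replace its flat gas-exchange cells, the AT1 cells. They came from C57BL/6 mice of the line SPC-CreERT2;R26R-tdTomato, aged 6 to 10 weeks and given tamoxifen, so that cells with an active SPC (Sftpc) promoter and their descendants carry the Tomato label. Sorted labelled cells of both groups were grown as organoids together with lung stromal cells, and the stromal cells are in the same libraries. The control group received PBS and the IL-1β group IL-1β, with 1 droplet-based single-cell RNA-seq library each. The dose stands as 10 ng/mL in the study's figure legend and as 20 ng/mL in its culture methods, and the culture time as day 21 in the legend and 2 weeks in the description of the series. Animals and wells were not labelled within a library, so cells are not replicates and no test between groups of cells or libraries is given. Values are counts of unique molecular identifiers (UMIs), each standing for 1 captured RNA molecule, and intervals are at the 95% level and cover counting error only.

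The IL-1β library held 41220175 UMIs with a median of 11496.5 per barcode, and the control library 33965848 with a median of 14613. A cell entered the AT2 base when its summed Epcam, Cdh1, Cldn3, Cldn7 and Krt18 exceeded its summed Col1a2, Col3a1, Sparc and Dcn, when Hopx, Rtkn2 and Akap5 gave at most 2 UMIs, and when Sftpc made up at least 1% of its UMIs. Cells in the top 15% on Krt8, Krt19, Cldn4, Sprr1a and Sfn, genes of damage-associated transient progenitors (DATPs), were set aside. These gates took the 3066 barcodes to 2380, 2039, 1942 and then 1650 cells. Each base cell was assigned to the trio with its highest standardized mean of log-scaled expression. State a (Cxcl10, Cd14, Tnfaip2) took 439 cells, state b (Cd177, Ceacam10, Cxcl3) 330 and state d (with Fgl1 and Trf) 475, beside the 406 of Retnla, Gstm1 and Slc7a11. The same gates and rule, standardized over the 743 control base cells, gave 194 control cells (26.1%, interval 23.0% to 29.4%), and a share near this size follows from the rule, which divides any base among 4 trios.

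The 406 cells were somewhat deeper than the rest. Their median was 12590.5 UMIs and 3296 genes per cell, against 11050.5 UMIs and 3073.5 genes in the other 3 states. Mitochondrial transcripts made up a median of 4.38% of their UMIs, against 4.19%. The median doublet score was 0.124, against 0.130, and no base cell scored over 0.7, but this cut marked 3 cells in the whole series, so doublets were not removed. The 2 libraries share 11 barcodes, 1 of them among the 406.

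Glutathione is the main small thiol that buffers oxidants in the cell. Its supply depends on cystine, which enters through the exchanger made of SLC7A11 and SLC3A2, and on the enzymes GCLC, GCLM and GSS that assemble it, and glutathione S-transferases such as GSTM1 couple it to reactive compounds. The transcription factor NRF2, held back by KEAP1, drives many of these genes through antioxidant response elements. ATF4, the factor of the integrated stress response, drives Slc7a11 together with genes for amino acid and serine synthesis. Retnla encodes a secreted resistin-like protein known from type 2 immune responses in macrophages and airway epithelium. AT2 cells face high oxygen and use this defence in the healthy lung.

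The promoter of Slc7a11 is shown because the supply of cystine and the ATF4 response meet at this gene. Slc7a11 (ENSMUSG00000027737) lies on chromosome 3, 49892526 to 50443614, on the minus strand (GENCODE M21, GRCm38). In the 250 bases upstream of its RefSeq start (GRCm38.p6), the letters TGATGNAA of an ATF4 element were found on both strands, facing each other, in chr3:50443615-50443719. The capitals below mark both matches, and the stretch is shown 5′ to 3′ on the minus strand.
Slc7a11: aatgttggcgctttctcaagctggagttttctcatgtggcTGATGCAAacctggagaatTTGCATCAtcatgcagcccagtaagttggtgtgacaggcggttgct
Such a match on either strand is present upstream of 3.91% of 27025 genes. Next to it stand 3 genes of oxidant defence that were higher in these cells and whose upstream windows hold the core letters TGACNNNGC of an antioxidant response element, Gclm (chr3:122245383-122245471), Txnrd1 (chr10:82859074-82859162) and Gsta3 (chr1:21240424-21240512), each on the plus strand with the core in capitals. In Gclm and Txnrd1 the core reads on the opposite strand.
Gclm: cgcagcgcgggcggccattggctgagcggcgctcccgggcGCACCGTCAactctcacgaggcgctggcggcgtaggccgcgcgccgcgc
Txnrd1: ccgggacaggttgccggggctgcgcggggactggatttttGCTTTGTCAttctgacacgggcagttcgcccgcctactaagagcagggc
Gsta3: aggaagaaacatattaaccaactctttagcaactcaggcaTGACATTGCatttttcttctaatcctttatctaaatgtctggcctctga
This core is upstream of 11.5% of genes, among them also Asns, Phgdh, Sesn2 and Herpud1 of the ATF4 list. Herpud1 was not among the higher genes. The windows of Gstm1 and Retnla hold neither set of letters, but both hold the letters of a STAT6 element (TTC and GAA with 4 bases between), as do those of 6.76% of genes. A match describes letters only and says nothing of whether a factor is bound.

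The 3 selecting genes are given as a description, since the rule used them. Gstm1 (ENSMUSG00000058135, chromosome 3, 108012255 to 108017973) had 91.7 of every 1000000 UMIs (CPM) in state a, 130 in state b, 114 in state d and 797 in the 406 cells (Poisson interval 773 to 822). Slc7a11 gave 32.6, 51.5 and 20.7 CPM in states a, b and d, and 133 in the 406 cells (interval 124 to 144). Retnla (ENSMUSG00000061100, chromosome 16, 48842551 to 48844461) gave 6.56, 15.2 and 11.2 CPM in states a, b and d, and 103 in the 406 cells (interval 94.6 to 112). In control AT2 base cells the levels were 81.0 CPM for Gstm1, 17.6 for Slc7a11 and 13.1 for Retnla. The 406 cells held 72.3% of the base's Gstm1 UMIs, 58.7% of its Slc7a11 UMIs and 77.6% of its Retnla UMIs.

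**Figure D1:**
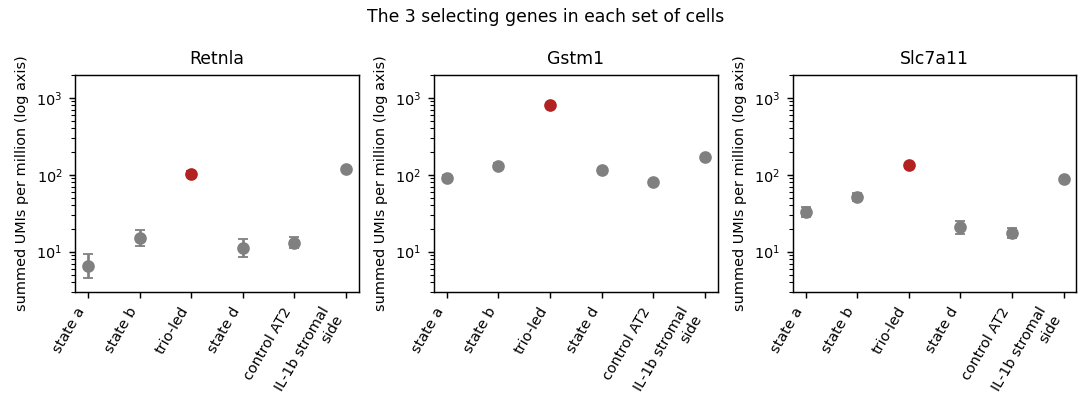
Summed CPM (log axis) of Retnla, Gstm1 and Slc7a11 in the 4 IL-1β states, the control AT2 base and the IL-1β cells on the stromal side of the gate, with Poisson 95% intervals. The 406 cells (trio-led, red), chosen on these genes, stand highest for Gstm1 (797) and Slc7a11 (133). For Retnla the stromal side reaches 118, against 103 in the 406 cells. Without cells of at least 5 Retnla UMIs these values are 13.5 and 23.2.

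The label names Retnla first, and the data went against that. Of the 406 cells, 300 had no Retnla UMI and 86 had exactly 1, while 7 cells with at least 5 UMIs held 422 of the 541 UMIs (78.0%), and 4 of them held 396. Without such cells Retnla stood at 23.2 CPM in the 406, at 10.0 CPM in the other 3 states and at 13.5 CPM on the stromal side of the gate. Found in 26.1% of the 406 cells, Retnla was also found in 9.65% of the other AT2 cells and in 23.0% of cells on the stromal side of the gate, whose median depth was 12220 UMIs. Thinned to 4500 UMIs a cell, these shares were 11.1%, 4.10% and 12.5%. When the score was rebuilt from Gstm1 and Slc7a11 alone, 365 of the 406 were kept among 412 cells.

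Gstm1 was the selecting gene found most often. It was found in 383 of the 406 cells (94.3%), against 60.6% of the other AT2 cells, and thinned to equal depth in 74.4% against 33.9%. Its median was 2.74 UMIs per 10000 in a cell, with quartiles of 1.44 and 5.05 and a highest value of 302. Slc7a11 was found in 227 cells (55.9%), against 19.8% of the other AT2 cells. Across the 1650 base cells Spearman's rho was 0.058 between Retnla and Gstm1, 0.016 between Retnla and Slc7a11 and 0.145 between Gstm1 and Slc7a11 (per-cell log-scaled values that share each cell's depth, a description). Thinned to equal depth these were 0.016, -0.024 and 0.086. All 3 genes were found together in 41 of the 406, Gstm1 alone in 119, Slc7a11 alone in 13 and Retnla alone in 5. No 1 of the 3 genes marked every member. In the 163 members with under 2 Gstm1 UMIs per 10000, Gstm1 stood at 115 CPM, a level that this cut on Gstm1 itself limits. The cells are called trio-led below, after the rule, and given no cell type beyond AT2.

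Membership was a matter of degree. The standardized trio score of members ran from -0.56 to 5.35 with a median of 0.82, and in 45 of them (11.1%) it was below the base mean, the other 3 scores being lower still. In 39 members the lead over the next trio was under 0.1, and 47 other cells fell short by less than 0.1. The closest member scored -0.564 against -0.566 for its next trio, and the closest cell outside 0.2577 against 0.2579 for state d. A lead of at least 0.5 was held by 247 members (60.8%).

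AT2 marker genes differed little between trio-led cells and the other states. Sftpc, used in the gate, was 7.13% of a member's UMIs at the median and 7.03% in the other states, against 0.413% on the stromal side. None of the 17 AT2 markers counted was higher past the call defined in the next paragraph, and 1, Sftpd, was lower. The levels of Abca3, the lipid pump of lamellar bodies, were 276 CPM in trio-led cells and 279 in the others. Lpcat1, which makes surfactant lipid, gave 406 and 402 CPM, and the lineage factor Nkx2-1 255 and 278. Of 17 immune markers 8 had no UMI in the 406 cells, and Ptprc, the pan-leukocyte gene, stood at 0.381 CPM. Lyz2, the most abundant gene of that list at 40527 CPM, is a gene AT2 cells use. The lysosomal gene Cd68 stood at 41.2 CPM in the 406 cells and 41.3 in the others, and the neutrophil gene S100a8 at 5.15 and 4.57. Endothelial markers summed to 1.33 CPM. Of the matrix genes not used in the gate, Col1a1 gave 21.2 CPM in trio-led cells and 22.9 in the others.

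Which other genes went with the selection was asked by summing UMIs over the 406 cells and over the 1244 cells of the other states and dividing the CPM. A gene counted as higher when the ratio was at least 1.25 with its exact binomial interval above 1, and as lower at 0.8 or less with the interval below 1. Of 9174 genes with at least 100 UMIs, leaving out the genes of the rule and gates, 240 were higher (2.62%) and 338 lower (3.68%), with a median log2 ratio of -0.01. Because the same cells chose the members, these ratios describe the chosen cells and test nothing. The 20 genes that led by the lower limit of the interval were Bex2, Reg3g, Ces1f, Scgb3a1, Nqo1, Bex4, Efna3, Cbr3, Blvrb, Gsta3, Gdf15, Spink5, Gpx2, Mthfd2, Prmt8, Srxn1, Bcl2a1a, Aif1l, Gclm and Taldo1. Of these, 18 had an interval above 1 against each of states a, b and d taken singly. Against state a alone 302 of 7602 genes were higher (3.97%) and 639 lower (8.41%), against state b 327 of 7272 (4.50%) and 140 (1.93%), and against state d 268 of 7595 (3.53%) and 406 (5.35%).

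Genes of oxidant handling stood among these 20, below the leading Bex2, Reg3g, Ces1f and Scgb3a1. Cbr3, a carbonyl reductase, stood at 72.8, 90.2 and 85.2 CPM in states a, b and d and at 163 in trio-led cells, a ratio of 1.98 (interval 1.81 to 2.17). Blvrb, a biliverdin and flavin reductase, stood at 79.0, 84.9 and 85.0 CPM and at 152, a ratio of 1.84 (interval 1.68 to 2.01). For both genes trio-led cells stood above each of the other 3 states. Srxn1, which repairs overoxidized peroxiredoxins, gave 23.5, 24.5 and 20.5 CPM in states a, b and d and 41.4 in trio-led cells (ratio 1.82, interval 1.53 to 2.17). Gpx2, a glutathione peroxidase of epithelia, gave a ratio of 1.80 (interval 1.61 to 2.02). Nqo1, a quinone reductase, gave 2.78, 4.15 and 3.15 CPM and 12.2 in trio-led cells, a ratio of 3.67 (interval 2.49 to 5.45) that rests on 64 and 48 UMIs.

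Several leaders rested on few cells. A single trio-led cell held 712 of the 758 Scgb3a1 UMIs and 107 of the 127 Reg3g UMIs, both products of airway secretory cells, and it was also 1 of the 7 cells with at least 5 Retnla UMIs (126). Leaving out the 5 cells with the most UMIs on each side, the ratio of Scgb3a1 was 0.72 and that of Reg3g 0.73, from 2.79 and 4.07. Scgb3a1 was otherwise found at a like low share everywhere in this library, in 10.1% of trio-led cells, 11.5% of the other AT2 cells and 15.5% of stromal-side cells, and summed to 0 UMIs in the control base. Bex2, an X-linked gene of the brain-expressed family, had 280 of its 336 UMIs in 23 cells, and its ratio was 6.21 and, without the top 5 cells, 6.13. Bcl2a1a has near-identical copies among which reads may have been split, and the mu-class genes around Gstm1 are close in sequence too.

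Of the 31 genes counted of the list for glutathione synthesis and NRF2 targets, 12 were higher and none lower, with a median log2 ratio of 0.18 against -0.01 over all genes, of which 2.62% were higher. It is the longest of the lists, and the ATF4 list (10 of 20) and the p53 list (4 of 9) had larger shares and medians. The list and its members were chosen with results of these data known. Among the enzymes that build glutathione, Gclc gave 571 CPM against 411 (ratio 1.39, interval 1.33 to 1.45), Gclm 66.1 against 41.4 (1.60, interval 1.40 to 1.83) and Gss 31.4 against 25.1 (1.25). Gsr, which regenerates it, gave 83.7 against 66.7 CPM (1.25). On the thioredoxin side Txnrd1 gave 75.3 against 57.2 CPM (1.32), whereas Txn1 gave 1.08 and did not pass. Taldo1, of the pentose phosphate path that feeds NADPH, gave a ratio of 1.48, the ferritin light chain Ftl1 1.34 and Esd 1.48. Hmox1, the haem oxygenase often used as an NRF2 readout, gave 100 against 92.3 CPM and did not pass, nor did Prdx1 (ratio 1.09), Gpx4 (1.07) or Slc3a2, the partner of Slc7a11 (1.07). The regulators themselves were close to level, Nfe2l2 (NRF2) at 222 against 217 CPM and Keap1 at 50.1 against 54.3. Upstream windows with the antioxidant core belonged to 2 of the 10 higher genes with a matched window, the Gclm and Txnrd1 sequences printed above, and to 4 of the 16 matched genes that did not pass (Prdx1, G6pdx, Nfe2l2 and Sod1).

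Most glutathione S-transferases other than Gstm1, a selecting gene, did not pass the call. Of 15 counted, 3 were higher and 1 lower, with a median log2 ratio of 0.16, where 2.62% of all genes were higher and 3.68% lower. Without the 36 members of at least 10 Gstm1 UMIs per 10000, 1 was higher and 1 lower (median log2 ratio 0.08). There 2.44% of 9104 genes were higher and 3.17% lower. Gsta3 gave 127 against 70.3 CPM (1.81, interval 1.64 to 2.00), Gstp1 148 against 108 (1.37) and Gstm2, the neighbour of Gstm1 in the mu class, 46.7 against 36.3 (1.29). Gsto1 was lower at 21.7 against 27.7 CPM (0.78). Gsta4 (1.04), Gstt1 (1.00) and the microsomal Mgst1 (1.12, the most abundant at 1523 CPM) did not pass.

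**Figure D2:**
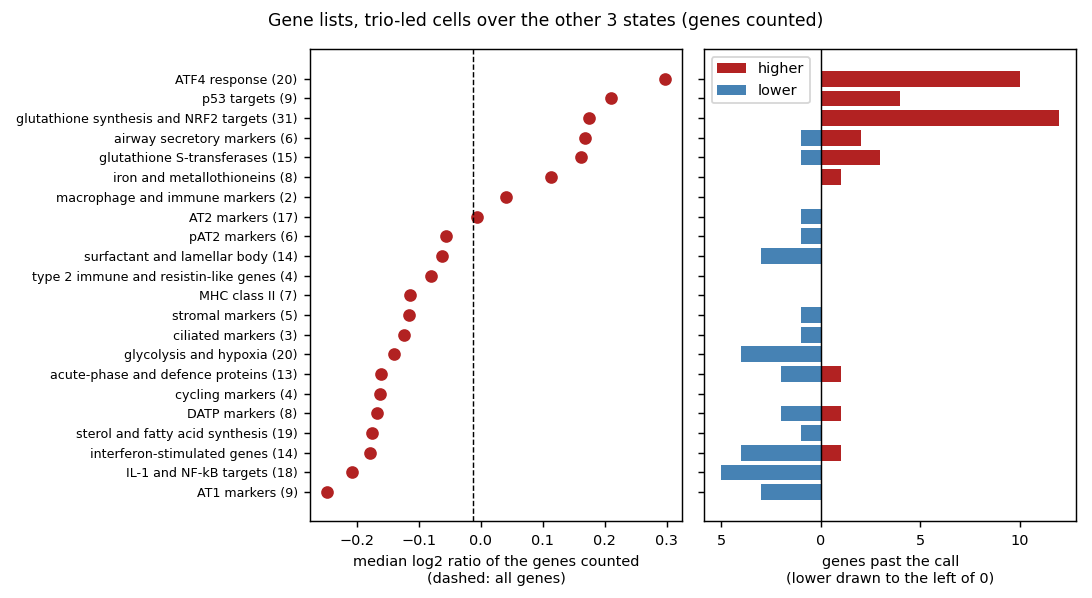
Left, the median log2 ratio of each gene list in trio-led cells over the other 3 states (the number of genes counted in parentheses, dashed line over all 9174 genes). Right, how many genes of each list were higher or lower past the call. The ATF4 list (10 higher of 20), the p53 list (4 of 9) and the NRF2 list (12 of 31) stand at the top, and the IL-1 and NF-kB list (5 lower of 18) near the bottom.

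Genes of the NRF2 list stood highest in a small tail of Gstm1-high cells. With at least 10 Gstm1 UMIs per 10000, a cut set after the values were seen, 36 trio-led cells (8.87%) held 67.2% of the members' Gstm1 UMIs and 48.4% of their Nqo1 UMIs (31 of 64) with 10.5% of all their UMIs. Among the 1650 base cells 39 were Gstm1-high, and 5 of the 743 control base cells. Their median depth was 16264.5 UMIs, above the 12590.5 of all members, and depth's part in the pattern was not tested. Against the 370 other members, 21 of 29 NRF2 list genes were higher and none lower (median log2 ratio 0.50), where 5.62% of 5374 genes were higher and 5.21% lower. Cbr3 (4.94, interval 4.28 to 5.69), Gclm (3.36), Srxn1 (3.19), Gss (2.92) and Taldo1 (2.84) led these, and Blvrb, outside the list, gave 4.73. In the same cells 10 of 13 glutathione S-transferases were higher, among them Gstm2 (3.08), Gsta3 (2.67) and Gsta4 (2.34). Hmox1 (0.98) and Nfe2l2 (0.82, interval 0.66 to 1.00) were not. Other lists differed in these cells too, with 5 of 9 p53 targets and 4 of 8 iron and metallothionein genes higher. Lower were 8 of 18 sterol and fatty acid genes, 6 of 13 surfactant genes and 4 of 15 IL-1 and NF-kB targets.

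Grades of Gstm1 below the tail carried part of the same genes. Members fell into 163 cells with under 2 Gstm1 UMIs per 10000, 139 with 2 to 5, 68 with 5 to 10 and 36 with 10 or more. Cbr3 stood at 85.3, 114, 197 and 571 CPM in these 4 bins, and Blvrb at 71.0, 117, 193 and 518. Gsta3 stood at 77.2, 116, 173 and 289 CPM. These 3 genes stood higher in each bin than in the one below it. So did Spink5 (302, 313, 393 and 695 CPM) and Cdkn1a (168, 217, 219 and 353 CPM). The rise was thus not particular to genes of oxidant handling. Nqo1 stood at 6.7, 7.2, 7.4 and 56.4 CPM, but below the tail these values rest on 14, 13 and 6 UMIs. Their intervals (3.7 to 11.3, 3.8 to 12.4 and 2.7 to 16.1) are too wide to tell a level course from a rise. Gclm was at 52.3, 56.7, 46.8 and 178 CPM. Ces1f, a carboxylesterase, was at 2.9, 5.6, 16 and 92.7 CPM. Without the 36 Gstm1-high cells, the remaining 370 had 5 of 30 NRF2 list genes higher than the other 3 states, against 2.44% of 9104 genes, and the list's median log2 ratio was 0.11. Gpx2 (1.62), Srxn1 (1.48), Cbr3 (1.40), Gclm (1.28) and Esd (1.25) were the 5. Taldo1 (1.24, interval 1.16 to 1.32), Gclc (1.23, interval 1.18 to 1.29), Txnrd1 (interval 1.05 to 1.37) and Ftl1 (1.19) fell just short of 1.25 with their intervals above 1.

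**Figure D3:**
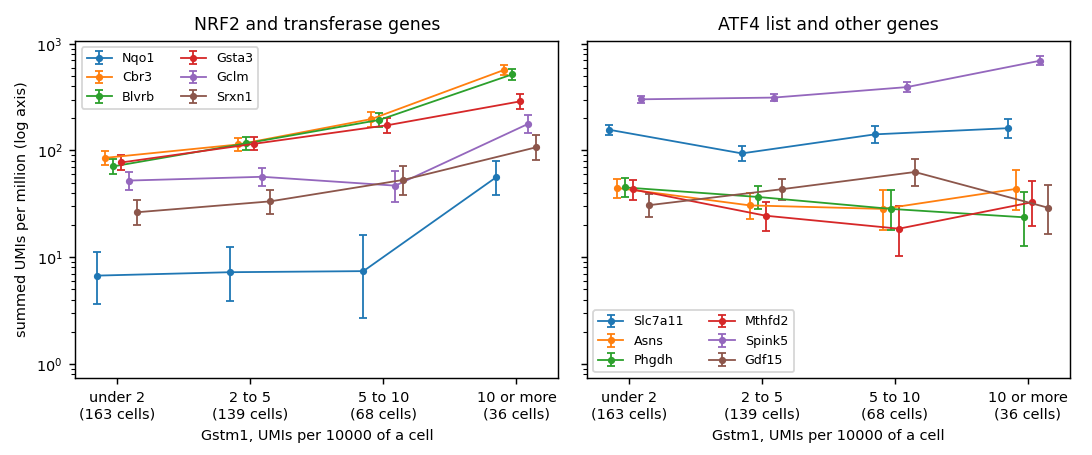
Summed CPM (log axis, Poisson 95% intervals) of named genes in trio-led cells binned by their Gstm1 level. Nqo1, Cbr3, Blvrb, Gsta3, Gclm and Srxn1 (left) are highest in the last bin of 36 cells. So are Spink5 (695) and Slc7a11 (162) on the right. Asns, Phgdh, Mthfd2 and Gdf15 (right) are not, Phgdh being at 45.1 in the first bin and 23.6 in the last. Gstm1 is a selecting gene, so the bins are shaped by the rule, and members low in it could be kept through Slc7a11 or Retnla.

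Some genes of the ATF4 response were also higher, fewer of them when the score left out Slc7a11 or used thinned cells (next paragraph). Of 20 list genes counted, 10 were higher and none lower, with a median log2 ratio of 0.30, where 2.62% of all genes were higher. Against states a, b and d singly 8, 6 and 7 of the 20 were higher (3.97%, 4.50% and 3.53% of all genes), and 1 was lower against each of a and d (8.41% and 5.35% of all genes). Mthfd2, of mitochondrial one-carbon metabolism, stood at 14.7, 20.8 and 14.4 CPM in states a, b and d and at 31.8 in trio-led cells (ratio 1.94, interval 1.58 to 2.37). Phgdh, the entry enzyme of serine synthesis, stood at 22.7, 30.5 and 15.5 CPM and at 37.4 (1.66, interval 1.38 to 1.99). For both genes state b came nearest. The asparagine synthetase gene Asns gave 37.2 against 24.7 CPM (1.50, interval 1.26 to 1.80), and Psat1 (1.36) and Psph (1.40), the next steps of serine synthesis, passed too. Trib3 (1.44), Atf3 (1.41), Slc7a5 (1.41), Sesn2 (1.31) and Atf4 itself (1.25) made up the rest. The endoplasmic reticulum chaperone Hspa5 (0.84) and Herpud1 (1.00) did not pass.

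How many ATF4 list genes were higher depended on which selecting gene was used. Gstm1 and Slc7a11 are both in the rule, so the counts below describe the choice of cells and test nothing. In Gstm1-high against other members 1 of 16 ATF4 list genes was higher and 1 lower, near the 5.62% and 5.21% of all genes, the lower one being Atf4 at 0.72 (interval 0.55 to 0.94). The 227 members with Slc7a11, set against the 179 without it, had 6 of 16 ATF4 list genes and 8 of 29 NRF2 list genes higher, where 2.96% of 5374 genes were. Among the 370 members below the Gstm1 cut, the 200 with Slc7a11 had 6 of 15 higher than the 170 without it (median log2 ratio 0.35), where 2.87% of 5023 genes were higher, and 2 of 29 NRF2 list genes. Finding Slc7a11 goes with depth, the 227 members with it having a median of 13676 UMIs and the 179 without it 11250, and the part of depth was not tested. When the score was rebuilt without Slc7a11, 1 of the 20 ATF4 list genes was higher in the chosen cells (2.51% of all genes), and 12 NRF2 list genes were. Rebuilt without Gstm1, it gave 11 ATF4 and 9 NRF2 list genes (2.68% of all genes). With cells thinned to equal depth before scoring, 4 ATF4 and 12 NRF2 list genes were higher (2.29% of all genes). Of the higher ATF4 list genes 2 of 9 with a matched upstream window, Asns and Atf3, held TGATGNAA, as did 4 of the 10 others matched.

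p53 targets were also near the top of the lists, with 4 of 9 higher and none lower (median log2 ratio 0.21), where 2.62% of all genes were higher. With the score rebuilt without Gstm1, 1 of the 9 was higher (median log2 ratio 0.09), against 2.68% of all genes. Cdkn1a, the cell cycle inhibitor p21, gave 212 against 143 CPM (1.49, interval 1.38 to 1.60) and was highest in the stromal-side cells at 402. Gdf15, a secreted stress hormone also induced by ATF4, stood at 19.9, 21.2 and 19.9 CPM in states a, b and d and at 39.8 in trio-led cells (1.96, interval 1.64 to 2.35). Phlda3 (1.40) and Zmat3 (1.32) passed, and Mdm2 (0.96) and Bax (1.12) did not. None of 4 cycling genes and none of 2 immune markers counted passed either way.

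Several inflammatory and interferon genes were lower. Of 18 IL-1 and NF-kB targets counted, 5 were lower and none higher, with a median log2 ratio of -0.21, where 3.68% of all genes were lower. States a and b were themselves chosen on inflammatory genes (Cxcl10, Cd14 and Tnfaip2 for a, Cxcl3 among those of b). Lower values of such genes against these states are therefore in part what the rule asked for. The count of 5 also depended on the score and on the comparison cells. Without Gstm1 in the score 2 were lower and 2 higher (3.41% of all genes were lower), and with thinned scoring 5 were lower and 1 higher (3.35% lower). Against the states taken singly, the shares of all genes that were lower were 8.41% for state a, 1.93% for b and 5.35% for d, and the shares higher 3.97%, 4.50% and 3.53%. Beside these, 11 of 16 IL-1 and NF-kB targets were lower and none higher against state a, 3 of 15 and none against state b, and 1 of 15 lower and 4 higher against state d. Cxcl5, which attracts neutrophils, gave 181 against 337 CPM (0.54), the adhesion gene Icam1 262 against 349 (0.75) and Relb 37.5 against 48.0 (0.78). Ccl20 (0.31) and Zc3h12a (0.79) were the other 2. Cxcl1 (1.06), Nfkbia (0.89) and the abundant Lcn2 (17513 against 19791 CPM, 0.88) did not pass. Interferon-stimulated genes had 4 of 14 lower and 1 higher, with Ifit1 at 36.0, 7.85 and 1.77 CPM in states a, b and d and 3.62 in trio-led cells. State a was chosen on Cxcl10, an interferon-induced gene, and it is the state that sets the ratio of 0.23 for Ifit1. Against state a 5 of 13 interferon-stimulated genes were lower and none higher, against state b none of 10 passed either way, and against state d none of 9 was lower and 2 were higher. Of the surfactant list 3 of 14 were lower, Sftpd at 3356 against 5025 CPM (0.67), the protease gene Ctsh (0.73) and Fabp5 (0.75). Glycolysis and hypoxia had 4 of 20 lower, among them the lactate exporter Slc16a3 (0.42) and Pfkl (0.72). That count came from state d, against which 14 of 20 were lower, while none of 19 was lower against state a and, against state b, none was lower and 3 were higher. MHC class II genes had none of 7 past the call, and type 2 immune genes other than Retnla none of 4, with 8 of that list at 0 UMIs in trio-led cells.

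The 10 leading lower genes were Ltf, Bpifa1, Ifit1, Ccl20, Ifitm1, Rsad2, Ndufa4l2, Gdpd2, Tnip3 and Klk10. Against each of states a, b and d taken singly, 2 of the 10 had an interval below 1. Ltf, the milk and neutrophil protein lactoferrin, stood at 37.8 CPM in state a, 0.923 in b, 8.07 in d and 1.33 in trio-led cells. Bpifa1, an airway defence protein, stood at 206 CPM in state a, 1.85 in b, 11.6 in d and 23.1 in trio-led cells, and its ratio of 0.30 became 1.21 without the top 5 cells on each side. Ltf had 7 UMIs in trio-led cells, and it, Bpifa1, Ccl20, Ifitm1 and Klk10 were higher in the chosen cells, not lower, when the score left out Gstm1 or used thinned cells. Ndufa4l2, a hypoxia-induced gene, stood at 68.1 CPM in state d and at 8.35 in a, 6.92 in b and 12.6 in trio-led cells. For the list counts that follow, 2.62% of all genes were higher and 3.68% lower. Airway secretory markers had 2 genes higher (Scgb3a1 and Reg3g) and 1 lower (Bpifa1) of 6, all of them in few cells. Of the 8 lists not yet described, acute-phase proteins had 1 gene higher and 2 lower of 13 (C3 at 0.80, Cfb at 0.55 and Itih4 at 1.29), sterol and fatty acid synthesis 1 lower of 19 (Sqle, 0.79) and iron handling 1 higher of 8 (Ftl1). AT1 markers had 3 lower of 9 (Ager 0.70, Lmo7 0.65, Clic5 0.56), DATP markers 1 higher (Cdkn1a) and 2 lower of 8, primed AT2 markers 1 lower of 6 (Itga7, 0.72), ciliated markers 1 lower of 3 (Dynlrb2, 0.51) and stromal markers 1 lower of 5 (Fn1, 0.75). Against state a, where 8.41% of all genes were lower, 7 of 9 AT1, 5 of 8 DATP and 5 of 19 sterol list genes were. Against state b, where 1.93% of all genes were lower and 4.50% higher, no gene of these 3 lists was lower, and 1 of 8 AT1 and 4 of 8 DATP markers were higher. Against state d, where 5.35% of all genes were lower, 3 of 9 AT1, 2 of 8 DATP and 2 of 19 sterol list genes were.

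The question whether the same genes accompany the trio without IL-1β was put to the control library, with the 194 control cells in which the trio led. Of the 20 leading genes, 16 had at least 30 UMIs there, and 14 of these had a ratio above 1, a direction shared by 52.0% of 8984 genes. The interval lay above 1 for 6 of them, against 4.98% of genes, and below 1 for none. Gpx2 gave a control ratio of 1.70 (interval 1.32 to 2.17), Cbr3 1.61 (interval 1.26 to 2.05), Srxn1 1.56 (interval 1.16 to 2.09), Mthfd2 1.46 (interval 1.04 to 2.03) and Gclm 1.27 (interval 1.02 to 1.57). Spink5, an epithelial protease inhibitor, was at 0.98 in control (interval 0.86 to 1.12) and at 1.72 with IL-1β, and Prmt8 at 0.99 and 1.81. Of 30 NRF2 list genes 27 had a control ratio above 1, 14 an interval above 1 and 1 an interval below 1 (median log2 ratio 0.12). Of 20 ATF4 list genes the counts were 15, 5 and 0. All-gene calls in control came to 196 of 7500 higher (2.61%) and 179 lower (2.39%). Both libraries were split by the same genes, so a shared direction is in part what the rule asked for.

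**Figure D4:**
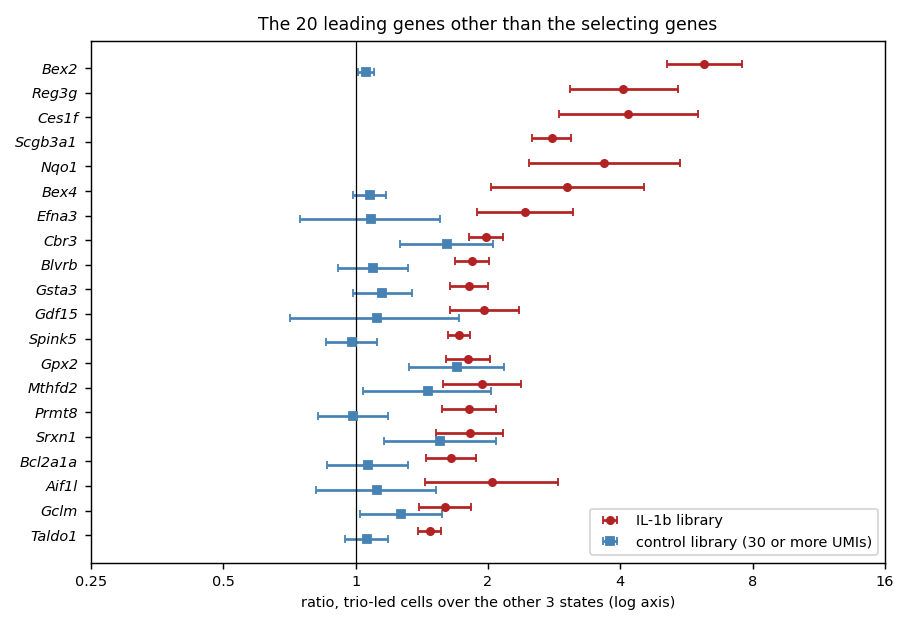
Ratio (log axis, exact 95% intervals) of the 20 leading genes in trio-led cells over the other 3 states, in the IL-1β library (red) and, for the 16 genes with at least 30 UMIs, in the control library (blue). Gpx2, Cbr3 and Srxn1 are above 1 in both, whereas Spink5 and Prmt8 are near 1 in control, and Scgb3a1 and Reg3g rest on 1 cell.

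Bex2 shows how far a ratio within a library can be from a level between libraries. Its control base cells gave 900.0 CPM and its IL-1β base cells 24.6, with UMIs in 95.6% of control base cells. In the control cells where the trio led it stood at 936 CPM, against 886 in the other control cells (ratio 1.06, interval 1.01 to 1.10). Bex4, its neighbour on chromosome X, gave 244 CPM in control base cells, 10.5 in trio-led cells and 3.46 in the other 3 states. Of the 30 IL-1β base cells with at least 5 Bex2 UMIs, 23 were trio-led, and 6 of these 23 were Gstm1-high. With 1 library a condition, IL-1β and library preparation cannot be told apart.

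To see whether trio-led cells lie together when the selecting genes are not used, the base cells were clustered on 1442 variable genes without the rule and gate genes. Members were present in all 9 clusters, at 12.2% to 50.4% of a cluster. Cluster 1 (258 cells) held 130 of them, 50.4% of the cluster (interval 44.1% to 56.6%) and 32.0% of all members, and 26 of the 36 Gstm1-high cells (72.2%). Clusters 8 (43 cells) and 7 (86 cells) followed with 44.2% and 39.5%, and clusters 8 and 1 each held 3 of the 7 Retnla cells. The other 10 Gstm1-high cells lay outside cluster 1, and at resolution 2.0 the largest group of them was 21 of the 36, with 7 in a second cluster. The cluster with those 21 held 69 cells, 55 of them trio-led (79.7%). Cluster 1 was also deep, with a median of 14059.5 UMIs, and the part of depth was not tested. Outside cluster 1 the trio-led cells were spread over the other 8 clusters.

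**Figure D5:**
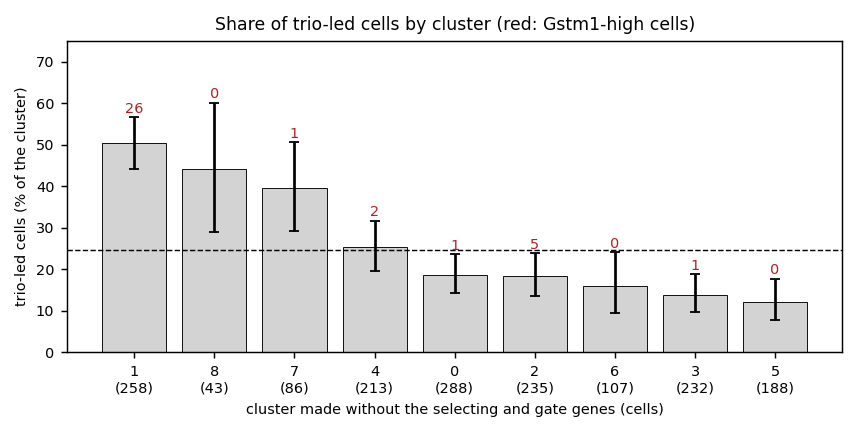
Share of trio-led cells (bars, %, Clopper-Pearson 95% intervals) in 9 clusters of IL-1β AT2 cells made without the selecting and gate genes, with the number of cells in parentheses, the number of Gstm1-high cells in red and the base share of 24.6% dashed. Cluster 1 holds 26 of 36 Gstm1-high cells.

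Outside the AT2 base the selecting genes appeared in other combinations. The 292 cells set aside for DATP genes had Retnla at 108 CPM, Gstm1 at 256 and Slc7a11 at 59.2. The 341 epithelial cells over the AT1 cut had 9.62, 98.0 and 11.4 CPM. The 97 cells with Sftpc under 1% had Slc7a11 at 143 CPM and Scgb3a1 at 4657, the latter from the 12.4% of them in which it was found. Stromal-side cells had Slc7a11 at 87.9 CPM, Gstm1 at 168 and Nqo1 at 19.7, above the 12.2 of trio-led cells.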

How the data were processed

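The authors aligned the reads to GRCm38 with Cell Ranger and deposited raw UMI counts per gene and cell barcode, 1 matrix per library and unfiltered for stromal cells, doublets or their cutoffs (more than 500 and fewer than 7000 genes, more than 2000 UMIs), which all 406 members pass. Scanpy 1.3.6 is named in the submitters' processing notes. The members and gene lists were chosen with earlier results of these data known. Counts of the same symbol were summed, cells were gated and scored on the natural log of 1 plus UMIs per 10000, and groups were compared by summed counts per 1000000 UMIs with exact Poisson, binomial and Clopper-Pearson intervals (scipy 1.17.1), at 95%. With 1 library per condition no test was run. Named genes are the rule genes (1 of them is not reported here), the 20 higher and 10 lower genes ranked by the interval limit nearest 1, list genes past the call (or the most abundant ones) and 8 transcription factors. Splits by Gstm1 or Slc7a11 were set after values were seen. Clusters used scanpy 1.11.5 (resolution 1, leidenalg 0.10.2). Upstream sequences are RefSeq's (GRCm38.p6). Motifs were searched on both strands of 250 bases, with TTGCNNAA (C/EBP, 10.8% of genes) and the NF-kB letters (GGGA and CC with 4 bases between, 19.7%) searched beside those in the text. Scripts were tested on simulated data. Alternatives changed gates, scoring, depth, scaling, minimum counts and comparison cells.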

Additional observations from a re-analysis of the deposited data

Results flagged for a closer look

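Retnla was measured in cells that the comparisons above do not use. On the stromal side of the epithelial gate it gave 118 CPM in the IL-1β library (686 cells). The control library's stromal side (1072 cells) gave 65.1 CPM and trio-led cells 103. Cells with at least 5 UMIs numbered 38 on the IL-1β and 55 on the control stromal side. Without such cells the IL-1β stromal side gave 13.5 CPM, the control stromal side 12.2 and trio-led cells 23.2. The order of the pooled values therefore rests on those cells. With 1 library each, the difference between the stromal sides was not tested.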

How the results depend on the processing

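The share of trio-led cells stayed inside its counting interval under 11 of 12 alternatives and was 20.5% when the score left out Gstm1. The count of higher genes kept within 1.5 times of 240 except for 133 with a minimum of 300 UMIs, which leaves fewer genes. The genes changed more than the count, as 114 of the 240 were also higher with thinned scoring, 100 without Gstm1 in the score, 131 without Slc7a11 and 173 without Retnla. The 338 lower genes became 205 with that minimum, 639 against state a alone and 140 against state b alone. NRF2 list genes numbered 5 without the Gstm1-high cells, an alternative chosen after seeing the data, and ATF4 list genes 4 with thinned scoring, 1 without Slc7a11 in the score and 6 against state b. Without Gstm1 in the score 1 p53 list gene was higher, and with the DATP limit at the top 10% 1 was lower. The highest share of members in a cluster was 41.8% at resolution 0.5 and 79.7% at 2.0. In control, 12 of the 20 leading genes in place of 14 were above 1 with IL-1β scaling. Without shared barcodes 11 NRF2 and 9 ATF4 list genes were higher, and without the 7 Retnla cells 11 and 8. Of 758 log2 ratios of the 3 selecting, 20 higher and 10 lower genes under alternatives, 726 kept their sign and 32 reversed, and 21 of 33 genes never reversed. With the DATP limit at the top 20%, Bpifa1 was 2.09 and Klk10 2.91. With thinned scoring Ltf was 3.57, Bpifa1 5.23, Ccl20 0.56, Ifitm1 0.34 and Klk10 5.59. Without Gstm1 in the score these 5 were 6.65, 6.79, 1.32, 0.59 and 5.90. Without Retnla in it Retnla was -0.68, Reg3g -1.92 and Scgb3a1 -3.43. Without the 5% deepest cells Reg3g was -0.49, Scgb3a1 -0.23, Bpifa1 0.60 and Klk10 1.83. Against state a Ndufa4l2 was 0.59 and Gdpd2 0.26. Against state b Ltf was 0.53, Bpifa1 3.64, Rsad2 1.46, Ndufa4l2 0.86 and Gdpd2 0.24. Against state d Bpifa1 was 0.99, Ifit1 1.03, Rsad2 1.28 and Klk10 1.83. Without the 7 Retnla cells, also chosen after seeing the data, Reg3g was -0.61 and Scgb3a1 -2.56. Where a few cells hold a gene, as for Scgb3a1 and Reg3g, their assignment sets its sign, and for the other reversals the cause was not tested. No paired analysis was possible because each condition has 1 library. Depth limits low genes most, such as Nqo1 with 112 UMIs in the base.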
